A study of Mus musculus with 9 samples.

Results

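Cytochrome P450 genes encode haem enzymes that add oxygen to drugs, inhaled chemicals, fatty acids, sterols, retinoic acid and vitamin D. They take their electrons from P450 reductase in the endoplasmic reticulum or, in mitochondria, from ferredoxin. The lung holds its own set in the secretory club cells and alveolar type 2 cells, while the liver holds the largest amounts and the most members. The genes described here were all those whose symbol is Cyp followed by a family number, a subfamily letter and a member number, which gave 77 of the 34638 genes measured. Another 11 symbols that start with Cyp and a digit were left out by this pattern, among them pseudogenes, Cyp51, Cyp4a12a and Cyp4a12b.

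Lung RNA of 9 wild-type C57BL/6 mice was sequenced, 3 in each group. Control mice were challenged with PBS. IL-33 mice received 0.5 µg of recombinant mouse IL-33, an epithelial alarmin, by the intratracheal route on each of days 0 to 3. IL-33+LM8 mice received the same IL-33 and, before it, an intraperitoneal injection of LM8, named as a MyD88 inhibitor, at 10 mg/kg. MyD88 is the adaptor through which the IL-33 receptor signals. No group received LM8 without IL-33, so its effect on unchallenged lung was not measured. The study's methods describe female mice of 6 to 8 weeks sampled on day 4 for the control and IL-33 groups and do not describe the LM8 group. Each library is whole lung, so fewer cells of a type and less RNA per cell cannot be told apart in any value below.

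Libraries of 2 kinds were found within every group, and this bears on the liver-type P450 genes. Alb, the albumin gene of hepatocytes, stood at 341 to 650 CPM (counts scaled to library size) in 6 libraries (control replicates 1 and 2, IL-33 replicates 2 and 3, IL-33+LM8 replicates 1 and 2). In control replicate 3, IL-33 replicate 1 and IL-33+LM8 replicate 3 it stood at 0 to 1.53 CPM. The summed level of 20 hepatocyte genes was 718 to 1278 CPM in the 6 libraries and 5.62 to 9.75 CPM in the other 3, and 19 of the 20 were higher in each of the 6 than in any of the 3. The lung markers were high in all 9 libraries, with summed alveolar type 2 genes between 10954 and 19367 CPM. Total counts ran from 53877663 to 90607218 per library.

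Of the 77 genes, 76 had more than 3 counts in at least 1 library and 35 had more than 3 in every library. A mean of at least 0.5 FPKM (fragments per kilobase of gene length, scaled to library size) over the 9 mice was reached by 41, which were tested, and 36 stayed under it. Cyp1a2 lay just inside this limit with a mean of 0.501 FPKM and Cyp2c68 just outside it with 0.419. Only 3 genes had a mean of 100 FPKM or more. These were Cyp2f2 with 670 FPKM, Cyp4b1 with 198 and Cyp2b10 with 125. Another 8 lay between 10 and 100 FPKM, namely Cyp2s1, Cyp4f18, Cyp2a5, Cyp2d22, Cyp20a1, Cyp27a1, Cyp1a1 and Cyp4v3.

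Summed over all 77 genes, P450 mRNA was 1902, 2046 and 1870.1 FPKM in control mice, then 507, 533 and 553 with IL-33, and 1220.2, 1007.5 and 1041 with IL-33+LM8. The 3 groups did not overlap. Cyp2f2 alone made up 65.4% ± 0.404 (SD, n = 3) of this sum in control mice, 40.1% ± 1.17 in IL-33 mice, with 48.4% ± 5.01 in IL-33+LM8 mice.

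**Figure D1:**
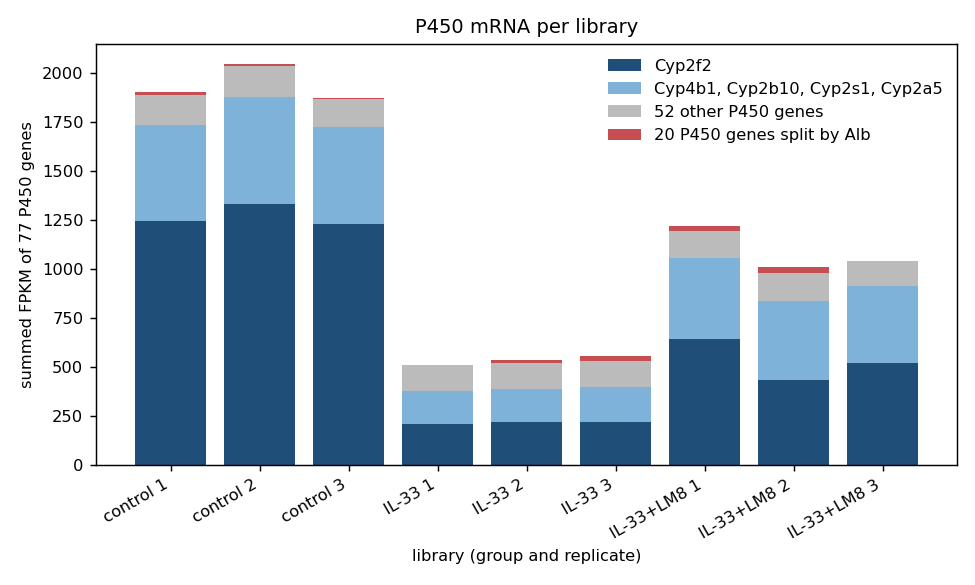
Summed FPKM of the 77 P450 genes in each library (vertical axis, linear from 0), stacked as Cyp2f2, 4 other airway-associated genes, 52 other genes and the 20 genes that separate the libraries by Alb. The control bars stand between 1870.1 and 2046 FPKM and the IL-33 bars between 507 and 553, and the Alb-related segment is at most 28.1 FPKM.

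Between IL-33 and control mice, 13 P450 genes were called, of which 11 were lower and 2 were higher (edgeR's quasi-likelihood test, p adjusted by Benjamini-Hochberg, threshold 0.05, with a minimum of 1 on the log2 scale in either direction). Over all 16831 genes tested, 17% were called, 10.8% higher and 6.24% lower. The median log2 fold change of the 41 P450 genes was -0.40, beside -0.005 over all genes. The 41 include 12 genes that separated the libraries by Alb (described below), so this median mixes lung and liver-type genes. With no minimum fold change the P450 count was 21, with 4 higher and 17 lower, where 54.6% of all genes passed. The FPKM of the groups did not overlap for 24 of the 41, with 20 entirely lower and 4 entirely higher in IL-33 mice, and 31.7% of all genes were without overlap in each direction. For groups of this size the smallest two-sided p of an exact permutation test on 1 gene is 0.1.

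In IL-33+LM8 mice compared with IL-33 mice, 8 P450 genes were called, 7 higher and 1 lower. Over all genes 5.39% were called, 1.46% higher and 3.93% lower. The median log2 fold change of the P450 genes was 0.52, beside -0.006 over all genes. It again includes the 12 genes separated by Alb. The value at the median is that of Cyp2d10, one of the 12 (standard error 1.71), so it does not describe lung P450 genes alone. In 17 of the 41 genes every IL-33+LM8 mouse lay above every IL-33 mouse, which held for 21.2% of all genes. In IL-33+LM8 mice compared with control mice, 4 P450 genes were called, 2 higher and 2 lower, beside 7.33% of the 16829 genes tested there (5.87% higher and 1.46% lower). With no minimum fold change the P450 count was 13, beside 29.7% of all genes, and the groups did not overlap for 21 P450 genes, beside 47.3% of all genes. The 3 comparisons share samples in pairs and are not independent of each other.

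**Figure D2:**
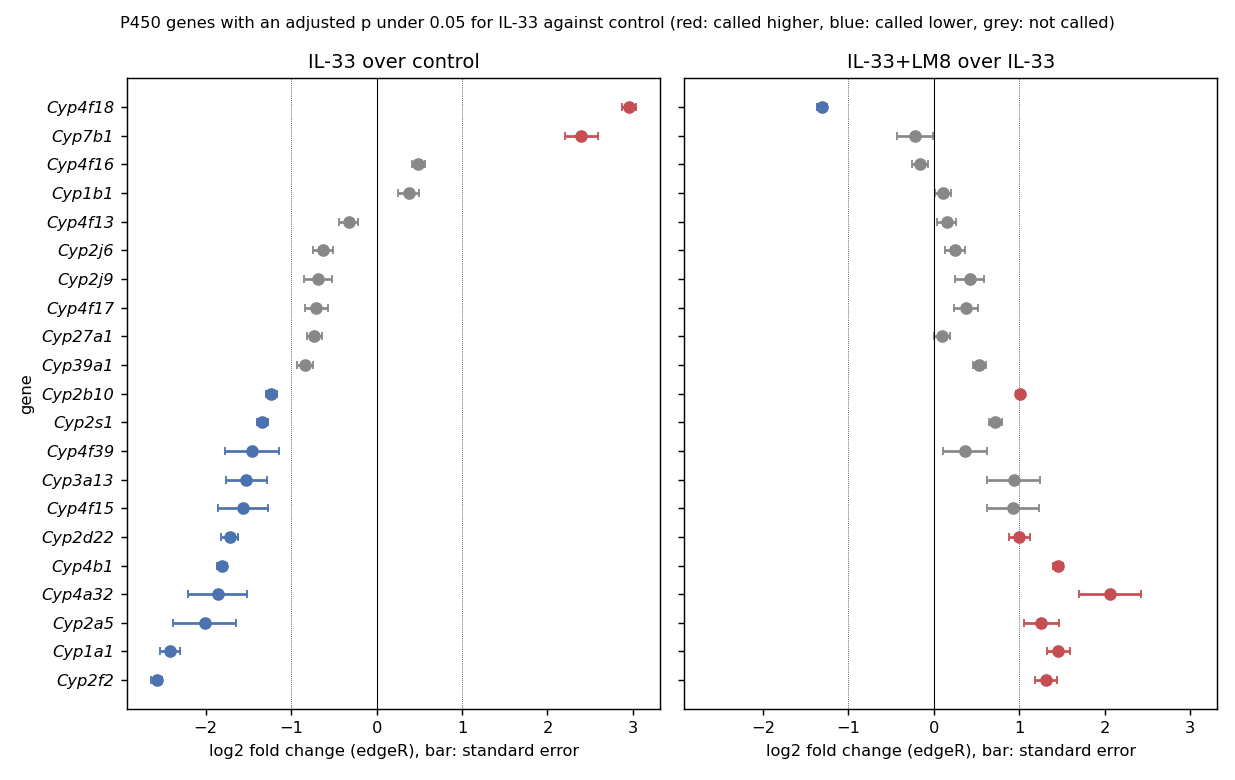
Log2 fold change (horizontal axis) with its standard error from edgeR for the 21 P450 genes with an adjusted p under 0.05 in IL-33 over control, in that comparison (left) and in IL-33+LM8 over IL-33 (right). On the left 11 genes are called lower (blue) and 2 higher (red), on the right 7 are called higher and Cyp4f18 lower, and grey points are not called. The panels share the IL-33 mice.

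The airway-associated P450 genes, listed as Cyp2f2, Cyp4b1, Cyp2b10, Cyp2s1 and Cyp2a5, fell in IL-33 mice without exception. Cyp2f2 encodes the club cell enzyme that activates naphthalene and styrene. It had 1242, 1329.9 and 1229.7 FPKM in control mice, 208, 217 and 215 in IL-33 mice, and 639, 431 and 521 in IL-33+LM8 mice. All IL-33 mice lay below all IL-33+LM8 mice, and these lay below all control mice. The gene was 5.96-fold lower in IL-33 than in control mice (log2 fold change -2.57, standard error 0.06, adjusted p = 6.83e-07) and 2.49-fold higher in IL-33+LM8 than in IL-33 mice (1.31, standard error 0.13, adjusted p = 0.00048). It remained 2.37-fold lower in IL-33+LM8 than in control mice (-1.24, standard error 0.14, adjusted p = 0.00097). Cyp2f2 was the only one of the 5 called in that last comparison. With no minimum fold change, 3 of the 5 were lower there at an adjusted p under 0.05, beside 13.4% of all genes. Cyp2s1 was among the 3 (1.51-fold lower, adjusted p = 0.0014).

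Cyp4b1 encodes an enzyme that activates pro-toxins such as 4-ipomeanol in lung. Its levels were 293, 297 and 274 FPKM in control mice, 80.6, 79.7 and 86.5 in IL-33 mice, and 231, 225 and 218 in IL-33+LM8 mice. It was 3.51-fold lower with IL-33 (adjusted p = 1.55e-06) and 2.73-fold higher with LM8 than in IL-33 mice (adjusted p = 3.29e-05). IL-33+LM8 mice were still 1.27-fold below control mice (adjusted p = 0.00942), which is under the minimum fold for a call.

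Cyp2b10, a xenobiotic-metabolizing enzyme that phenobarbital induces in liver, had 151, 179 and 164 FPKM in control mice, 71.7, 67.1 and 71.7 in IL-33 mice, and 142, 141 and 141 in IL-33+LM8 mice. It was 2.35-fold lower with IL-33 (adjusted p = 8.99e-06). It was 2.01-fold higher with LM8 than in IL-33 mice (adjusted p = 4.85e-05), so close to the minimum fold that without IL-33 replicate 2 it was no longer called, at a log2 fold change of 0.98. Cyp2s1, an extrahepatic epithelial P450, had 36.4, 35.2 and 33.2 FPKM in control mice, 13.4, 14.8 and 13.4 in IL-33 mice, and 25.0, 21.7 and 22.0 in IL-33+LM8 mice. It was 2.52-fold lower with IL-33 (adjusted p = 5.19e-06), and its 1.65-fold difference between IL-33+LM8 and IL-33 mice (adjusted p = 0.000485) was under the minimum fold.

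Cyp2a5, which hydroxylates coumarin and nicotine, was the most variable of the 5 in control mice, with 13.3, 36.7 and 22.9 FPKM. It had 4.28, 6.63 and 7.14 FPKM in IL-33 mice and 15.9, 15.2 and 12.1 in IL-33+LM8 mice. It was 4.03-fold lower with IL-33 (adjusted p = 0.00301) and 2.39-fold higher with LM8 than in IL-33 mice (adjusted p = 0.00396). The latter call was lost when only the 6 libraries with Alb were kept (adjusted p = 0.0859, log2 fold change 1.18). Of the 31-base stretches in Cyp2a5 transcripts, 54.6% also occur in another gene, mostly Cyp2a4, and the share was 19.4% for Cyp2b10, so their reads may be divided between near copies.

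**Figure D3:**
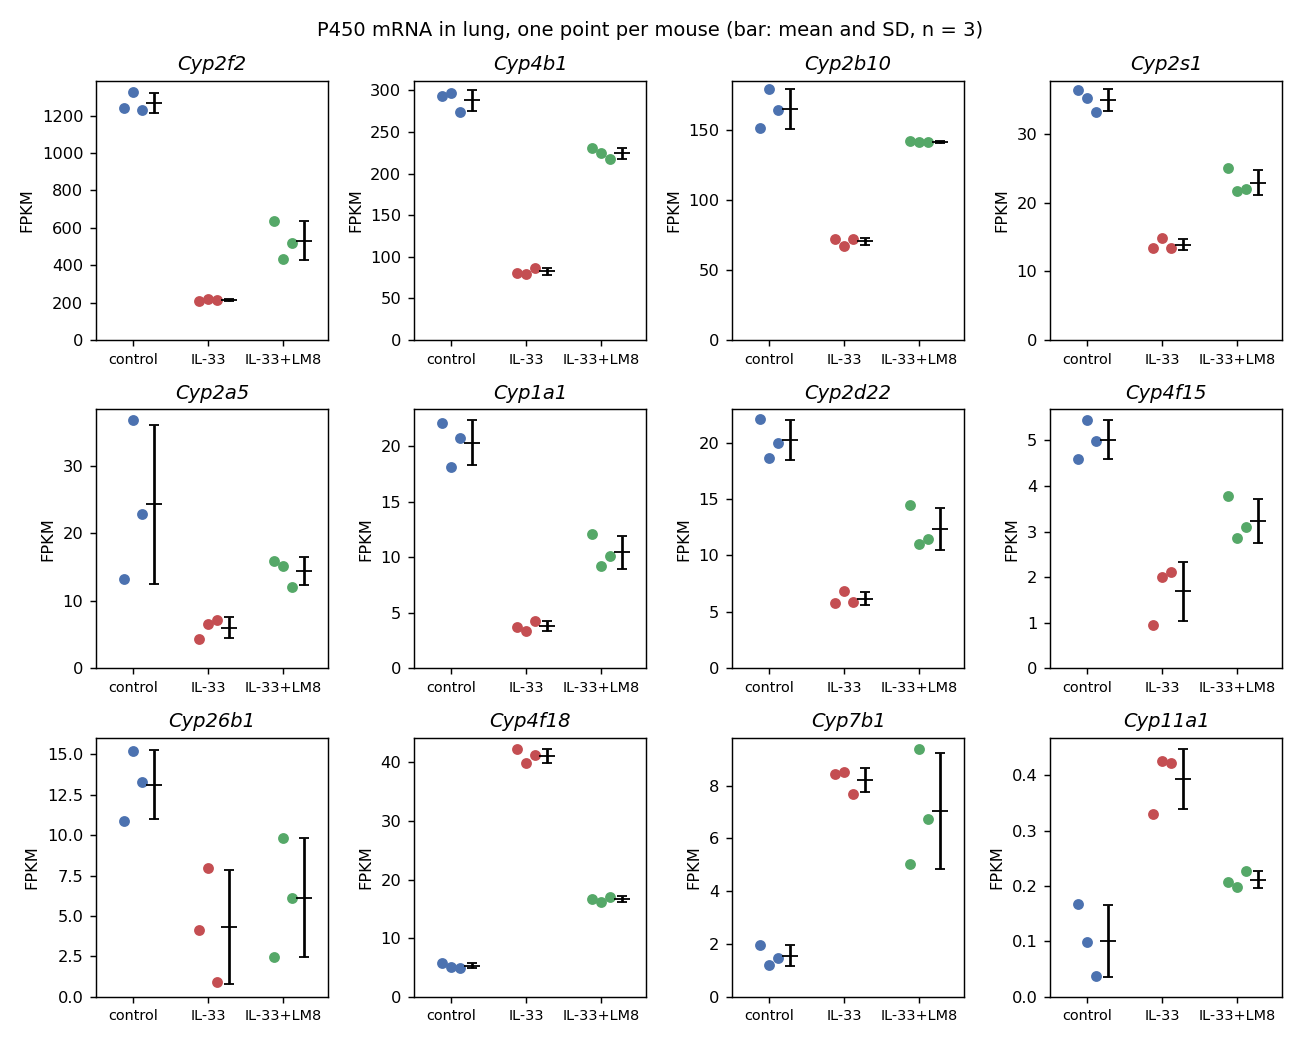
FPKM (vertical axes, linear from 0, a scale for each gene) of 12 P450 genes in control, IL-33 and IL-33+LM8 mice, with a point for each mouse and a black bar for the mean and SD of 3 mice. Cyp2f2, Cyp4b1, Cyp2b10, Cyp2s1, Cyp1a1, Cyp2d22 and Cyp4f15 stand highest in control and lowest in IL-33 mice, and Cyp4f18 stands at 39.8 to 42.2 FPKM in IL-33 mice and at 4.98 to 5.82 in control mice.

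Club cell markers are given beside these genes. The summed level of 8 club cell genes, none of them a P450, was 14309 to 15997 CPM in control mice, 5467 to 6159 in IL-33 mice, with 11026 to 11907 in IL-33+LM8 mice. With IL-33, 3 of the 8 were called lower (Scgb1a1, Scgb3a2 and Cbr2) and none higher, and 2 (Scgb3a2 and Cbr2) were called higher with LM8 over IL-33. Scgb3a2 had a log2 fold change of -3.52 and Scgb3a1 of -0.31 in IL-33 mice, so the markers were unequal among themselves, and Aldh1a7 was not called (63.5 FPKM ± 4.53 in control and 68.2 ± 0.659 in IL-33 mice; SD, n = 3). The summed levels of ciliated, alveolar type 1, alveolar type 2 and endothelial genes were also lowest in IL-33 mice, for example 284 to 313 CPM for ciliated genes beside 523 to 576 in control mice. With IL-33, 1 of 5 ciliated and 2 of 5 endothelial genes were called lower. So were 2 of 5 alveolar type 1 and 1 of 6 alveolar type 2 genes. None of these genes was called higher. With no minimum fold change, 4 alveolar type 1 genes were lower and 1 was higher, beside 27.2% and 27.4% of all genes. All 6 cardiomyocyte genes were called lower with IL-33, with a summed level of 676 to 819 CPM in control, 179 to 286 in IL-33 and 221 to 373 in IL-33+LM8 mice, and 4 of the 6 were called lower in IL-33+LM8 than in control mice. Summed macrophage genes were 511 to 563 CPM in control, 7321 to 8334 in IL-33 and 3302 to 3878 in IL-33+LM8 mice, though of the 5 genes 3 were called higher and 1 lower with IL-33. With LM8 over IL-33, 1 of the 5 was called higher and 1 lower. The part of these cell types in the P450 differences was not tested.

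The gene next to Cyp2f2 on the opposite strand, Gm15883, shares 6194 bases of its span with it in the deposited coordinates. Its level was 9.54 to 12.4 FPKM in control mice, 2.69 to 3.61 in IL-33 mice, with 4.36 to 10.1 in IL-33+LM8 mice. Whether the counting used strand is not given in the sources used here, so reads of the pair cannot be told apart. The RefSeq promoter window of Cyp2f2 holds 1 match to CACTTGA, a sequence that NK2-type homeodomain factors can bind, on the reverse strand. It is shown because this was the most abundant P450 gene, with the match in capitals, and it starts 192 bases before the gene's start (chr7:27119743-27119789, GRCm38.p6, plus strand).
Cyp2f2: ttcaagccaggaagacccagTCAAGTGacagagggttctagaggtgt
This motif occurs in 2.68% of all 32851 promoter windows searched and in those of 6 P450 genes, including Cyp3a13 and Cyp2j9.

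The targets of the aryl hydrocarbon receptor (AHR), the ligand-activated factor that binds dioxin response elements, did not move together. Cyp1a1, which oxidizes polycyclic aromatic hydrocarbons, had 22.1, 18.1 and 20.8 FPKM in control mice, 3.76, 3.40 and 4.28 in IL-33 mice, and 12.1, 9.18 and 10.1 in IL-33+LM8 mice. It was 5.35-fold lower with IL-33 (adjusted p = 5.55e-06) and 2.74-fold higher with LM8 than in IL-33 mice (adjusted p = 0.000372). IL-33+LM8 mice were 1.93-fold below control mice (adjusted p = 0.0017), under the minimum fold. Cyp1b1 had 1.72, 2.28 and 1.92 FPKM in control mice and 2.76, 2.50 and 2.44 in IL-33 mice. It was 1.3-fold higher with IL-33 (adjusted p = 0.037), under the minimum fold, and had 2.67, 2.92 and 2.69 FPKM in IL-33+LM8 mice. Cyp1a2, the third of these genes, had 0 counts in the 3 libraries with little Alb.

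The promoter windows of both Cyp1a1 and Cyp1b1 hold the core of the dioxin response element, GCGTG, once each in the 250 bases before the start. They are shown side by side because the genes differed in direction, with the core in capitals (its complement, CACGC, in Cyp1b1). The Cyp1a1 stretch lies at chr9:57697539-57697583 on the plus strand and the Cyp1b1 stretch at chr17:79715113-79715157 on the minus strand (GRCm38.p6).
Cyp1a1: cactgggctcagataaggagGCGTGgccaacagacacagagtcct
Cyp1b1: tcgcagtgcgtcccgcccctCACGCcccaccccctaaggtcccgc
This core is common, occurring in 28.2% of all windows and in those of 13 of the 58 P450 genes that have one.

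Among 5 other AHR target genes, 1 was called lower with IL-33 and none higher. This was Aldh3a1, an aldehyde dehydrogenase, with 12.8 FPKM ± 1.01 (SD, n = 3) in control mice, 3.39 ± 1.16 in IL-33 mice, with 5.25 ± 0.554 in IL-33+LM8 mice (3.77-fold lower with IL-33, adjusted p = 0.000453). Tiparp, the most abundant of the 5, was 1.35-fold lower (adjusted p = 0.00928). Ahr itself had 11.4 FPKM ± 0.812 in control and 12.5 ± 1.34 in IL-33 mice, and the groups overlapped.

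Among the fatty acid and eicosanoid hydroxylases, 10 of 15 were tested. With IL-33, 1 was called higher and 3 lower. Cyp4f18, which hydroxylates leukotriene B4 and is known from neutrophils, had 5.82, 5.08 and 4.98 FPKM in control mice, 42.2, 39.8 and 41.2 in IL-33 mice, and 16.7, 16.1 and 17.1 in IL-33+LM8 mice. It was 7.74-fold higher with IL-33 (log2 fold change 2.95, standard error 0.08, adjusted p = 1e-06) and 2.47-fold lower with LM8 than in IL-33 mice (-1.30, standard error 0.06, adjusted p = 3.8e-05). It remained 3.17-fold above control in IL-33+LM8 mice (adjusted p = 7.32e-05).

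The levels of 2 granulocyte types are given beside this gene. Summed neutrophil genes were 23.3 to 28 CPM in control, 142 to 165 in IL-33 and 607 to 709 in IL-33+LM8 mice. Summed eosinophil genes were 9.73 to 10.7, 65.3 to 74.0 and 12.3 to 14.1 CPM, and summed macrophage genes also stood highest in IL-33 mice. Of the 5 macrophage genes, 3 were called higher and 1 lower with IL-33 than in control mice. In IL-33+LM8 compared with IL-33 mice, 1 of the 5 was called higher and 1 lower. None of the genes of these 3 lists was at or under 3 counts in all libraries. The part of these cells in the level of Cyp4f18 was not tested. Zfp961, which shares 5311 bases with Cyp4f18 on the opposite strand, stood at 3.45 to 4.10 FPKM over all 9 mice.

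The 3 members called lower with IL-33 were Cyp4f15, Cyp4f39 and Cyp4a32. Cyp4f15 had 4.60, 5.45 and 4.99 FPKM in control mice, 0.951, 2.01 and 2.12 in IL-33 mice, and 3.78, 2.85 and 3.09 in IL-33+LM8 mice. It was 2.95-fold lower with IL-33 (adjusted p = 0.00338), and its 1.90-fold difference with LM8 had an adjusted p of 0.0618. Cyp4f39, which takes part in making the acylceramides of the skin barrier, had 2.98, 1.31 and 1.77 FPKM in control mice and 0.673 to 0.843 in IL-33 mice (2.75-fold lower, adjusted p = 0.00668), and its IL-33+LM8 values were 0.806, 1.24 and 0.783. Cyp4a32 was the least abundant called gene, with 57 to 86 counts in control, 12 to 23 in IL-33 and 73 to 89 in IL-33+LM8 mice. It was 3.63-fold lower with IL-33 (adjusted p = 0.00317) and 4.17-fold higher with LM8 than in IL-33 mice (adjusted p = 0.00555), and 62.8% of its 31-base stretches occur in another gene, mostly Cyp4a10. Cyp4v3, a fatty acid hydroxylase of the eye and other tissues, stood at 10.5 to 13.0 FPKM in all 9 mice. Cyp4f16 was 1.40-fold higher with IL-33 (adjusted p = 0.00152), under the minimum fold, with 4.94 to 5.17 FPKM in control and 6.81 to 7.39 in IL-33 mice. The untested Cyp4f37, with which Cyp4f16 shares sequence, had 5 to 9 counts in control and 22 to 51 in IL-33 mice.

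Of 9 other eicosanoid genes, 4 were called higher with IL-33 and 1 lower. Ltb4r1, the receptor for leukotriene B4, rose from 1.65 FPKM ± 0.161 to 20.7 ± 1.45 (SD, n = 3; adjusted p = 1.42e-06) and stood at 10.6 ± 0.0846 in IL-33+LM8 mice. Tbxas1, thromboxane synthase and itself a P450 enzyme under another symbol, was 7.94-fold higher with IL-33 (adjusted p = 2.92e-06) and 2.03-fold lower with LM8 than in IL-33 mice (adjusted p = 0.000371). The latter call was lost without IL-33 replicate 2, IL-33+LM8 replicate 1 or IL-33+LM8 replicate 3, with log2 fold changes from -1.13 to -0.96 over the mice left out. Alox5 and Alox5ap, which make leukotrienes, were 3.03-fold and 3.33-fold higher with IL-33. Ephx1, the microsomal epoxide hydrolase that acts on P450 products, was 2.07-fold lower (adjusted p = 1.07e-05).

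Among the sterol and bile acid genes, 5 of 6 were tested, and with IL-33 Cyp7b1 was called higher and none was called lower. Cyp7b1 encodes the oxysterol 7-alpha-hydroxylase, which acts on 25-hydroxycholesterol and helps make ligands of the chemotactic receptor GPR183. It had 1.98, 1.22 and 1.47 FPKM in control mice, 8.44, 8.51 and 7.68 in IL-33 mice, and 5.02, 9.39 and 6.72 in IL-33+LM8 mice. It was 5.25-fold higher with IL-33 (adjusted p = 5.22e-05) and 4.56-fold higher with IL-33+LM8 than in control mice (adjusted p = 0.00167). The IL-33+LM8 and IL-33 mice overlapped (log2 fold change -0.22, standard error 0.21, adjusted p = 0.505). Cyp27a1, the mitochondrial sterol 27-hydroxylase, had 16.0, 16.1 and 14.3 FPKM in control mice and 9.01 to 10.0 in IL-33 mice (1.66-fold lower, adjusted p = 0.000343, under the minimum fold). Its IL-33+LM8 values, 11.1, 9.19 and 9.72, overlapped those of IL-33 mice and lay below those of control mice (1.54-fold lower, adjusted p = 0.00416). Cyp39a1, another oxysterol hydroxylase, had 8.17 to 9.90 FPKM in control, 4.89 to 5.19 in IL-33 and 7.10 to 7.33 in IL-33+LM8 mice.

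Cyp46a1, the cholesterol 24-hydroxylase known from brain, was scattered, with 1.49, 1.11 and 0.591 FPKM in control mice, 0.236, 1.57 and 0.647 in IL-33 mice, and 0.533, 0.217 and 0.397 in IL-33+LM8 mice. It was called lower in IL-33+LM8 than in control mice (2.73-fold, adjusted p = 0.0445). The call was lost without control replicate 1, control replicate 2, IL-33+LM8 replicate 2 or IL-33+LM8 replicate 3, where the log2 fold change ran from -1.76 to -1.11 over the mice left out. With edgeR it was also lost with no filter on low values (adjusted p = 0.0759), in the joint fit of 9 mice (0.108) and with the liver covariate (0.0821). Both limma fits lost it too (adjusted p = 0.0617 and 0.0605), and the replicate block kept it (edgeR, adjusted p = 0.0265).

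The drug-metabolizing genes of the Cyp2d, Cyp2j and Cyp3a groups held lung and liver-type members. Cyp2d22, the most abundant Cyp2d gene here, had 22.1, 18.6 and 20 FPKM in control mice, 5.75, 6.82 and 5.90 in IL-33 mice, and 14.5, 11.0 and 11.5 in IL-33+LM8 mice. It was 3.29-fold lower with IL-33 (adjusted p = 1.12e-05) and 1.625-fold lower in IL-33+LM8 than in control mice (adjusted p = 0.00497), the latter under the minimum fold. Its log2 fold change with LM8 over IL-33 was 1.00 (adjusted p = 0.00106), and the call was lost without IL-33 replicate 1, IL-33 replicate 3 or IL-33+LM8 replicate 1, with values from 0.88 to 1.08. Cyp3a13, an extrahepatic member of the Cyp3a group, had 2.51, 3.08 and 2.37 FPKM in control mice, 0.657, 0.998 and 1.11 in IL-33 mice, and 2.14, 2.01 and 1.16 in IL-33+LM8 mice (2.88-fold lower with IL-33, adjusted p = 0.00128). Its 1.91-fold difference with LM8 had an adjusted p of 0.0608. Cyp2j6 and Cyp2j9, which make epoxides from arachidonic acid, were 1.54-fold and 1.61-fold lower with IL-33 (adjusted p = 0.00351 and 0.00857), under the minimum fold. Cyp20a1, a P450 without an assigned substrate, stood at 10.3 to 13.5 FPKM in all 9 mice.

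Cyp26b1, which degrades retinoic acid, varied widely between mice of a challenged group. It had 10.9, 15.2 and 13.3 FPKM in control mice, 4.16, 7.96 and 0.899 in IL-33 mice, and 2.46, 9.81 and 6.14 in IL-33+LM8 mice. All 6 challenged mice lay below all control mice, but the gene was not called (3.02-fold lower with IL-33, adjusted p = 0.0683, and 2.11-fold lower with IL-33+LM8, adjusted p = 0.1). It was called with IL-33 when IL-33 replicate 2 or IL-33 replicate 3 was left out, where the log2 fold change ran from -2.36 to -1.10 over the mice left out. Limma on log2(FPKM + 1) also called it with IL-33 (adjusted p = 0.0354), as did edgeR with the replicate block (0.0469). Against control, IL-33+LM8 mice were called lower by edgeR without IL-33+LM8 replicate 2 (adjusted p = 0.0344) and with the replicate block (0.0164). Cyp26a1 had 0 to 17 counts in control, 23 to 40 in IL-33 and 13 to 64 in IL-33+LM8 mice and was not tested, and Cyp26c1 reached 16 counts at most.

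Of 13 other retinoic acid genes, 11 were tested, and with IL-33 2 were called higher and 1 lower. The enzymes that make retinoic acid differed in direction. Aldh1a1 was 2.83-fold lower with IL-33 (251 FPKM ± 34.8 in control and 88.7 ± 2.17 in IL-33 mice; adjusted p = 1.91e-05). Aldh1a2 was 4.22-fold higher with IL-33 (adjusted p = 0.000168) and 2.08-fold lower with LM8 than in IL-33 mice (adjusted p = 0.000419). The latter call was lost without IL-33+LM8 replicate 1, at a log2 fold change of -0.97. Aldh1a3 rose with IL-33 (0.483 FPKM ± 0.165 to 5.39 ± 0.85; adjusted p = 5.09e-05) and was higher again in IL-33+LM8 mice (18.5 ± 9.08; 3.44-fold over IL-33, adjusted p = 0.0097).

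Most vitamin D and steroid P450 genes stayed under the limit for testing. Cyp2r1, a vitamin D 25-hydroxylase, stood at 0.512 to 0.823 FPKM in all mice. Cyp27b1, which makes the active hormone, had 0 to 29 counts, and Cyp24a1, which degrades it, had 0 counts in 8 libraries and 8 counts in control replicate 3. Vdr, the vitamin D receptor, was the only gene of the 12 listed P450 regulators called higher with IL-33, with 1.72, 1.29 and 1.34 FPKM in control mice, 7.64, 7.95 and 7.58 in IL-33 mice, and 2.36, 3.49 and 2.69 in IL-33+LM8 mice. It was 5.31-fold higher with IL-33 (adjusted p = 7.33e-06) and 2.71-fold lower with LM8 than in IL-33 mice (adjusted p = 0.000486). Ppara, a receptor for fatty acids, was the only regulator called lower with IL-33 (2.86-fold, adjusted p = 0.000921). Of the 12 regulators, 7 were tested. Nfe2l2, the most abundant of the 12, was 1.17-fold lower (adjusted p = 0.00363). Cyp11a1, which starts steroid synthesis from cholesterol, had 53, 31 and 14 counts in control mice, 109, 130 and 115 in IL-33 mice, and 63, 62 and 104 in IL-33+LM8 mice. It lay under 0.5 FPKM and was not tested. Its IL-33 counts were all above those of the other groups. Cyp21a1 had 0 counts in control mice and 6 to 30 in IL-33 mice, and 33.2% of its 31-base stretches occur in a pseudogene copy.

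Of the 6 redox partners, none was called in any comparison at the minimum fold. With IL-33, 3 were lower and 1 higher at an adjusted p under 0.05 of any size, beside 27.2% and 27.4% of all genes. Por, the reductase that feeds all microsomal P450 enzymes, had 80.4, 88.0 and 77.5 FPKM in control mice, 55.8, 59.2 and 59.3 in IL-33 mice, and 92.9, 76.7 and 80.4 in IL-33+LM8 mice. It was 1.41-fold lower with IL-33 (adjusted p = 0.000493) and 1.43-fold higher with LM8 than in IL-33 mice (adjusted p = 0.00276).

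The remaining P450 genes included those of liver, and these were separated from the airway genes by library. By the rule that a gene follow Alb when its highest library in each group is the one with the most Alb and its CPM is at least 2-fold higher in the library with the most Alb than in the one with the least, 11 P450 genes followed Alb. These were Cyp2c50, Cyp2c70, Cyp2d13, Cyp2d26, Cyp2d40, Cyp2e1, Cyp2j5, Cyp2u1, Cyp3a11, Cyp4a10 and Cyp4f14. Cyp2u1 met the rule although it had 66 to 113 counts in the 6 libraries with Alb and 44 to 111 in the other 3. In control mice it stood at 0.271 FPKM in replicate 1, with Alb, and at 0.273 in replicate 3, with little Alb. After the 2 kinds of library had been seen, a second rule was added, that each of the 6 libraries with Alb be higher than each of the other 3. It was met by 20 P450 genes, 8 of them also under the first rule. Among tested genes it was met by 12 of the 41 P450 genes (29.3%) and by 1.52% of all 16831 genes. Several of the 12, such as Cyp3a11 and Cyp1a2, had 0 counts in each of the other 3 libraries. They reached the limit for testing only through the libraries with Alb, so these shares are a description and not a test. The 20 were Cyp1a2, Cyp2a12, Cyp2c23, Cyp2c29, Cyp2c50, Cyp2c54, Cyp2c67, Cyp2c68, Cyp2c70, Cyp2d9, Cyp2d10, Cyp2d13, Cyp2d26, Cyp2j5, Cyp3a11, Cyp3a25, Cyp3a59, Cyp4a10, Cyp4a14 and Cyp4f14. Of the 31-base stretches of Cyp3a25 and Cyp3a59, 45.9% and 49.9% occur in another gene, mostly each other. The share was 50.2% for Cyp2d10, 44.9% for Cyp4a10 and 0% for Cyp2c23 and Cyp2c70. Reads of some of the 20 may thus be divided between near copies, and the 20 are not all independent. The second rule describes libraries and not treatments, since every group holds 2 libraries with Alb and 1 without. The fold of the first rule sets IL-33+LM8 replicate 2 against IL-33 replicate 1, so a difference of treatment enters it as well. Cyp4b1, for example, reached 2.81-fold in it but did not meet the ordering.

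In 16 of the 20 genes, all 3 libraries with little Alb had 0 counts, where a count of 0 allows up to 3 counts, or 0.0331 to 0.0454 CPM in these libraries, for counting error only. Cyp3a11, a major drug-metabolizing enzyme of mouse liver, had 284, 308 and 0 counts in control mice, 0, 281 and 694 in IL-33 mice, and 824, 893 and 0 in IL-33+LM8 mice. The zeros fell in the 3 libraries with little Alb. Cyp2d10 had 182, 141 and 0 counts, then 0, 171 and 269, then 327, 362 and 0. Cyp2c70, which makes muricholic acids in mice, had 63, 64 and 0 counts in control mice, 0, 109 and 202 in IL-33 mice, and 141, 184 and 0 in IL-33+LM8 mice. Cyp2a12, a steroid hydroxylase of liver, had 177 to 324 counts in the 6 libraries and 0 in the other 3. Cyp2d26 had 189 to 385 counts in the 6 and 0, 13 and 5 in the others, and Cyp2c23, which makes epoxides in kidney and liver, kept 20 to 44 counts in the others beside 94 to 147.

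Set against Alb itself, some of these genes kept a narrow ratio over the 6 libraries. Cyp2d26 had 8.90 to 11.4 counts per 1000 Alb counts and Cyp2a12 7.75 to 10.9. Cyp3a11 ranged from 12.6 to 25.3 and Cyp4a14, a fatty acid hydroxylase induced by PPARA ligands, from 1.07 to 6.74. Cyp2e1, which oxidizes ethanol and small solvents, had reads in every library, with 371 to 769 counts where Alb was low and 588 to 2306 where it was high, so the 2 kinds of library overlapped. None of the 5 airway-associated genes met either rule. Among control mice, Cyp2f2 had 1229.7 FPKM in the library with little Alb, beside 1242 and 1329.9 in those with Alb.

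**Figure D4:**
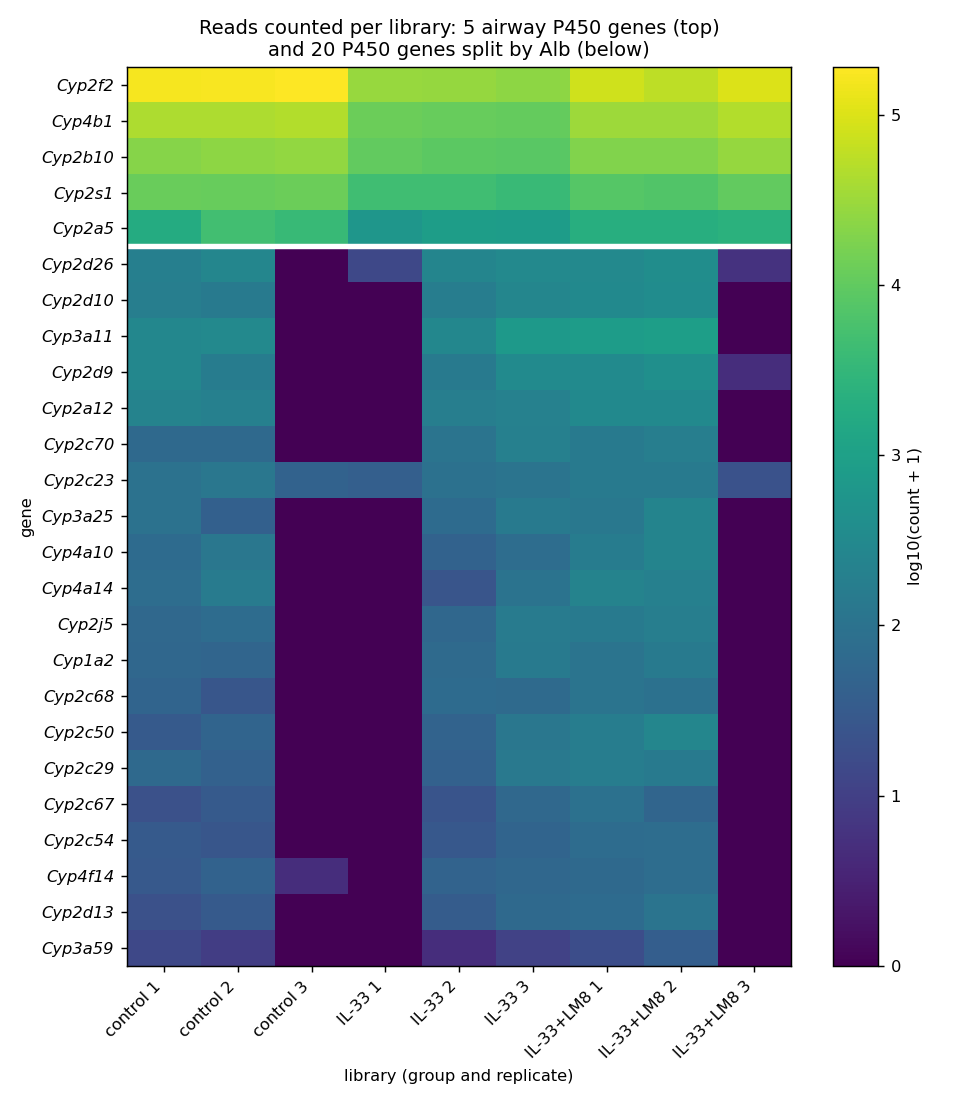
Counts per library, as log10(count + 1) in color, for 5 airway-associated P450 genes (top rows) and the 20 P450 genes higher in all 6 libraries with Alb (lower rows), with the 9 libraries in columns. In control 3, IL-33 1 and IL-33+LM8 3, 16 of the lower rows are at 0 and Cyp2c23 has 20 to 44 counts, while Cyp2f2 has 24483 to 191134 counts across the top row.

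None of the 12 tested genes of this kind was called in any comparison in the fit without a block. A block on the replicate number was fitted as an alternative. Same-numbered libraries of IL-33+LM8 and control deviated together from their group means, with correlations of 0.337 to 0.692. Replicate 3 of both is a library with little Alb. Differently numbered libraries with little Alb also deviated together. The correlation was 0.706 for IL-33 replicate 1 and control replicate 3, and 0.718 for IL-33+LM8 replicate 3 and IL-33 replicate 1. Whether the numbers mark pairs of mice was not tested, nor was the part of Alb. With the replicate block, the count of P450 genes called in IL-33+LM8 against control was 10, with 7 higher and 3 lower, in place of 4. The additions were Cyp3a11 (log2 fold change 1.57, adjusted p = 0.00318), Cyp2c70 (1.37, adjusted p = 0.0307), Cyp2j5 (1.35, adjusted p = 0.0293), Cyp2d10 (1.13, adjusted p = 0.0306), Cyp4a10 (1.13), and Cyp26b1 (-1.26, adjusted p = 0.0164). Alb was also higher in IL-33+LM8 replicates 1 and 2, at 581 and 650 CPM beside 341 and 384 in the same-numbered control mice. It was lower in IL-33+LM8 replicate 3, at 0.552 beside 1.53 CPM. When only the 6 libraries with Alb were kept, P450 counts were 14 for IL-33 against control, 7 for IL-33+LM8 against IL-33 and 4 for IL-33+LM8 against control.

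RefSeq promoter windows were at hand for 58 of the 77 genes, 15 of them among the 20 that separated the libraries. Of 16 motifs searched, CAAAGTCCA, a sequence bound by the liver factor HNF4A, was among the rare ones, present in 0.384% of all windows. It was in the windows of 6 P450 genes, 4 of them among the 15 and 2 among the 43 others. The stretches are shown, each on its gene's strand and with the motif in capitals, because they belong to genes that were at 0 where Alb was low, apart from Cyp8b1. The Cyp2c stretches are on chromosome 19 (Cyp2c40 chr19:39812831-39812879, Cyp2c67 chr19:39649139-39649187, Cyp2c68 chr19:39741150-39741198, Cyp2c70 chr19:40187322-40187370), Cyp3a11 at chr5:145879935-145879983 and Cyp8b1 at chr9:121916344-121916392, all on the minus strand of GRCm38.p6.
Cyp2c40: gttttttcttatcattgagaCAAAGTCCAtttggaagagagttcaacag
Cyp2c67: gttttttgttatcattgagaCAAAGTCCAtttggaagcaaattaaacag
Cyp2c68: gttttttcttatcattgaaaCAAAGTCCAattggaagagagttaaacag
Cyp2c70: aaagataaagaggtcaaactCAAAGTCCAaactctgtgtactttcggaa
Cyp3a11: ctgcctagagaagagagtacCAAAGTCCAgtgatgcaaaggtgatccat
Cyp8b1: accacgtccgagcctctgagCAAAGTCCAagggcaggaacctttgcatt
The motif starts 45 to 125 bases before the gene's start. Cyp2c40, Cyp2c67 and Cyp2c68 share most of the stretch, and their transcripts share 62.0% to 72.6% of their 31-base stretches with another gene, so neither sequences nor reads of these 3 are independent. Cyp2c40 reached 27 counts at most and Cyp2c67 93. A TATA box sequence, TATAAA, was in 10 of the 15 windows and in 10 of the 43 others, beside 12.4% of all windows.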

How the data were processed

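A single table of read counts and FPKM, by gene and mouse, was deposited by the authors. The submitters' processing notes name mm10, HISAT2 2.0, StringTie 1.3.0 and Bowtie 0.12.2 without roles; yet of 76 P450 genes found in GENCODE M21 (GRCm38) only 1 has the same start and end, so no table coordinate is given. Members, lists and tests were chosen with earlier results of these data known. Groups follow the labels. Within groups, the lowest ratio of the variance between libraries to that of sampling was 21.9, and no library was treated as a copy.

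The deposited counts were tested per comparison on its 6 mice with edgeR 4.0.16 (R 4.3.3; quasi-likelihood, TMM, Benjamini-Hochberg) over genes with a mean deposited FPKM of at least 0.5, and called at an adjusted p below 0.05 with a log2 fold change of 1 or more in size. Folds in the text are from this fit. Levels are the deposited FPKM, mean ± SD. The fits were tested on simulated data. The genes named are all called P450 genes, the 3 most abundant of each role group, genes that follow Alb, and called or most abundant partner genes; others were chosen after their values were seen. Alternatives used DESeq2 1.42.0, limma 3.58.1, other filters and pseudocounts of 1 and 0.1, a joint fit of 9 mice, a liver covariate, a replicate block and fits without each mouse.

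Same-numbered libraries deviated together in IL-33+LM8 and control (correlations 0.337 to 0.692). They did not in IL-33 and control (-0.48 to 0.368) or in IL-33+LM8 and IL-33 (-0.467 to 0.23). Between differently numbered libraries the highest correlations in these comparisons were 0.24, 0.706 and 0.718, in the same order. Those of 0.706 and 0.718 join libraries with little Alb. The numbers come from the labels, and whether they pair mice was not tested. Intervals of precision rest on 3 mice a group, and a floor of 3 counts covers counting error only, since reads carry no molecular identifiers. Promoters (250 bases before the start, both strands) are RefSeq's, GRCm38.p6; the motifs searched were GCGTG and its longer form TTGCGTG for AHR, GTTAAT for HNF1, the TATA box TATAAA, TTGCNNAA for C/EBP, CAAAGTCCA for HNF4, CACTTGA and likewise CTCAAG for NK2 factors, TGTTTAC and likewise TATTTAC for forkhead factors, AGATAA for GATA, the HNF1 palindrome (which holds GTTAAT), a pair of nuclear receptor direct repeats, and loose NF-kB and STAT motifs. Shared stretches were counted in GENCODE M21 transcripts.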

Additional observations from a re-analysis of the deposited data

How the results depend on the processing

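With no minimum fold change, 21 P450 genes passed for IL-33 against control, and 13 (4 higher, 9 lower) for IL-33+LM8 against control. By limma on log2(FPKM + 1), 5 passed in IL-33+LM8 against IL-33, without Cyp2b10, Cyp2d22 and Cyp4a32 (log2 fold changes 0.9995, 0.89 and 0.57); the cause was not tested. With the replicate block, the counts were 14, 7 and 10 for IL-33 against control, IL-33+LM8 against IL-33 and IL-33+LM8 against control. Whether the numbers pair mice was not tested in any of these comparisons. Beside Cyp26b1, Cyp2d22 and the genes named above, the block changed no call among the genes followed. Leaving out each mouse in turn gave 13 to 14, 7 to 9 and 3 to 5 genes. A liver covariate gave 15, 8 and 4. The number that follows Alb was 11, 13 with no minimum fold and 20 by the split into 6 and 3 libraries, chosen after seeing the data. The sign turned in 2 cases of 1650 gene values, without 1 mouse each: Cyp46a1 in IL-33 against control (0.082 without IL-33 replicate 1, range over the mice left out -1.25 to 0.082) and Cyp26b1 in IL-33+LM8 against IL-33 (-0.0148 without IL-33+LM8 replicate 2, range -0.0148 to 1.28); neither was called, and the cause was not tested. The calls of Cyp2b10 and Cyp2d22 with LM8 and of Cyp46a1 rest on values near a threshold. The 36 genes under 0.5 FPKM were not tested, and some reached over 100 counts in a library.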
